A study of Mus musculus with 16 samples.

Results

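Bacterial lipopolysaccharide (LPS) was given for 60 min to RAW 264.7 cells, a macrophage-like line derived from a mouse tumour, and gene levels in these cultures (LPS+DMSO, n = 4) were set against those in cultures that received the vehicle alone (DMSO, n = 4). These 8 arrays were taken by their labels from the 16 of the series. In the other 8, cordycepin at 20 µM took the place of the vehicle. All cultures had been kept in medium with 0.5% serum for 24 h, then received DMSO or cordycepin, and after 60 min were given LPS at 1 µg/ml or left without it for a further 60 min, 120 min in all. The 4 wells of a replicate number came from one plate and one day, and the 4 replicates were cultured on different days. The cells are a line in culture and not primary macrophages, and all of them had been deprived of serum.

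LPS, a component of the outer membrane of Gram-negative bacteria, is bound by CD14 and sensed by the receptor TLR4 with its partner MD-2. Through the adaptors MyD88 and TRIF the receptor activates the transcription factor NF-kB, the MAP kinases and IRF3, and the genes that respond within the first hour are known to include cytokines, chemokines, immediate early transcription factors and inhibitors that feed back on the same pathway. Many of their mRNAs are short-lived, and some of the products, such as interferon beta, act on the cells in turn and raise further genes later.

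Levels are log2 scaled signals of 1-colour arrays, and values over replicates 1 to 4 are given in that order. Between 22126 and 28663 of the 59305 spots per array were well above background, fewer on the slide with replicates 1 and 2 (22126 to 23789) than on the slide with replicates 3 and 4 (27151 to 28663). All 12 macrophage markers were well above background on all 8 arrays, among them Csf1r, Adgre1 and Lyz2, whereas none of the markers of fibroblasts (0 of 5), epithelial or endothelial cells (0 of 7) or conventional dendritic cells (0 of 4) passed the filter. Of 6 T or NK cell markers, 2 (Cd3e and Lck) were tested, of 4 B cell markers 2 and of 6 neutrophil or mast cell markers 3, and 0 of these were called. Cd3e, Lck and S100a8 were well above background on all 8 arrays. Gapdh, the glycolytic enzyme that is often used as a reference, had levels of 18.49, 18.30, 18.21 and 18.34 in DMSO and 18.38, 18.34, 18.44 and 18.35 in LPS+DMSO, and its change of 0.04 was smaller than the spread between replicates (adjusted p = 0.89). A fall in level cannot be told apart from fewer cells with the RNA, and every change is relative to the scaling of the arrays, with a median over all 15873 genes tested of -0.04 (log2). The DMSO array of replicate 2 stood apart in the interferon-stimulated genes, which are given with and without it.

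LPS raised 332 genes (2.09% of those tested) and lowered 395 (2.49%) by an adjusted p under 0.05 with a minimum change of 2-fold. The fitted rises reached much further than the fitted falls. By the fitted change, 129 raised genes reached at least 4-fold, 70 at least 8-fold, 38 at least 16-fold and 17 at least 32-fold. Of the lowered genes, 61, 9, 2 and 1 reached these limits. Among the 17 are Csf3 and Tmem88, whose DMSO signals were below background, so that only a smaller bound is given below. The same holds for the 1 gene lowered 32-fold, whose signals with LPS were below background. The median log2 change was 1.70 among the raised genes (quartiles 1.31 and 2.72) and -1.38 among the lowered (quartiles -1.78 and -1.16). A gene symbol was known for 255 of the raised genes (2.14% of 11900) and for 227 of the lowered (1.91%). Within the slides, 298 and 313 of the raised genes and 356 and 334 of the lowered rose or fell at least 2-fold on slides 1 and 2. The number lowered was less certain. It was 148 after another background correction (normexp) and 181 in the authors' own normalized values, against 223 and 273 raised, so that the raised genes were 60.1% of the calls in both cases and 45.7% here. Where levels of a gene are given, the groups did not overlap except for Gapdh, Rpl28, Csf1r, Ccl5, Csf1, Il6, Cd40, Ifit1, Gbp2 and Nos2. Genes named beyond the largest changes of the whole table and of each list were chosen after their values were seen.

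**Figure D1:**
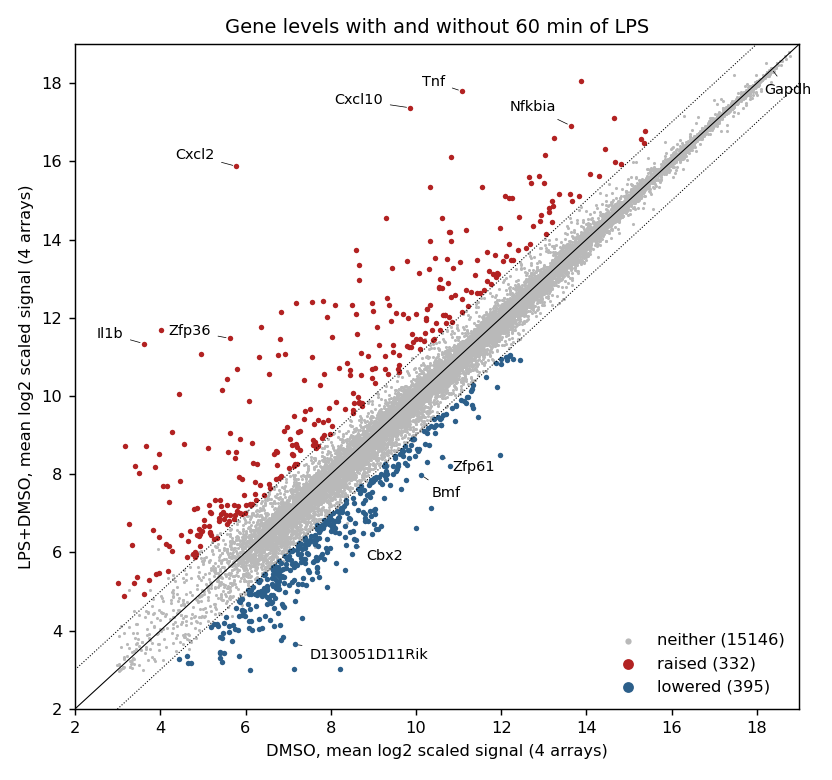
Mean log2 scaled signal of each of the 15873 genes tested in DMSO (horizontal axis) and LPS+DMSO (vertical axis), with raised genes in red, lowered genes in blue and the others in grey. The solid line marks equal levels and the dotted lines a 2-fold change. The 332 raised genes spread up to Cxcl2 far above the line, while the 395 lowered genes lie nearer to the lower dotted line. Background limits how far a level can be seen to fall.

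Cxcl2, Il1b, Ifnb1 and Cxcl10 had the largest fitted rises among genes with a symbol. Their promoters are shown because NF-kB, AP-1 and IRF factors, on which TLR4 signalling ends, are known to bind short elements in such regions. Each window ends shortly after the transcription start (RefSeq, build GRCm38.p6, written 5′ to 3′ on the strand of the gene). They lie at chr5:90903649-90903948 (plus strand), chr2:129371090-129371389 (minus), chr4:88522745-88523044 (minus) and chr5:92348840-92349139 (minus). Capitals mark letters that match the NF-kB consensus, TGANTCA (the AP-1 element), the core of the interferon-stimulated response element (ISRE, bound by IRF factors) or TATAAA within 50 bases before the start.
Cxcl2: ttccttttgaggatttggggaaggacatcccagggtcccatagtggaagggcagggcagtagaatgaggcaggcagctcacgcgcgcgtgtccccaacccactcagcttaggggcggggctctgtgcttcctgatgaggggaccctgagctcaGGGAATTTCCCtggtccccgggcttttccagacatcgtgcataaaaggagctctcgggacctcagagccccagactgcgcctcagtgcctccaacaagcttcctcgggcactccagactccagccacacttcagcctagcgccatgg
Il1b: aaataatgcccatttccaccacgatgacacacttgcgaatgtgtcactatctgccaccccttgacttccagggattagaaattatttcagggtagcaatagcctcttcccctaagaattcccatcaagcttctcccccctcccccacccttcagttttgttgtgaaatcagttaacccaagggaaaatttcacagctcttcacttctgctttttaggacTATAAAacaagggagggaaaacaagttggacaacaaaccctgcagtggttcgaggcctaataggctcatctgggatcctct
Ifnb1: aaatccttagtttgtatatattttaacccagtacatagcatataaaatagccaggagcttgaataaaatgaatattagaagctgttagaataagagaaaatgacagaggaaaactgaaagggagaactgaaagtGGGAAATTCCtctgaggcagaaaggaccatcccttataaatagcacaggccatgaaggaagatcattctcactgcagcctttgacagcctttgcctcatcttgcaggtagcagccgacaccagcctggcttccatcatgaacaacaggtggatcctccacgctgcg
Cxcl10: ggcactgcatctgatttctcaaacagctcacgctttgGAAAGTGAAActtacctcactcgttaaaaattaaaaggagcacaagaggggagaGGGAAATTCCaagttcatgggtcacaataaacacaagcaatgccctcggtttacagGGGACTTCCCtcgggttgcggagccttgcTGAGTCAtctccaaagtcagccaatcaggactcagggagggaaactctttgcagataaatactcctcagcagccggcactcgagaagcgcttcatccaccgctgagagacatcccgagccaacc
The match in Cxcl2 reads the consensus on both strands and begins at position -97, counted from the start. In Ifnb1 the match begins at -116. Cxcl10 holds a pair of NF-kB matches, at -159 and -103, with an ISRE match at -213 and an AP-1 match at -74. The Il1b window has none of these 3 and holds TATAAA at -31. These are matches of letters and were not tested for binding. A site that departs from the patterns searched is not marked. Neither is a TATAAA further than 50 bases before the start, as in the Ifnb1 window.

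Over all genes with a promoter in the RefSeq table, searched on both strands, the NF-kB consensus stood in 24 of 182 raised genes (13.2%), in 9 of the 39 raised at least 8-fold (23.1%), in 4 of 152 lowered genes (2.63%), in 5.08% of the 9260 genes tested and in 4.35% of all 27025 promoters of the table. The element TGACGTCA, which is bound by CREB and ATF factors, stood in 6.04% of raised, 12.8% of raised at least 8-fold, 5.26% of lowered and 3.48% of tested genes. CArG boxes, the sites of serum response factor, were present in 3.30%, 5.13%, 0.658% and 1.31% of the same sets, and the ISRE core in 6.59%, 10.3%, 4.61% and 3.17%. TGANTCA was present in 8.24%, 5.13%, 5.26% and 4.89%. Over all 27025 promoters the shares were 1.88% for TGACGTCA, 1.57% for CArG boxes, 3.49% for the ISRE core and 7.93% for TGANTCA. The 8-fold limit was set on the fitted change. The shares were not tested, and in the smaller sets they rest on few genes (2 of 39 for TGANTCA).

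Tnf, which encodes the founding cytokine of its family, rose 105-fold (log2 change 6.72, SE 0.12, adjusted p = 1.1e-14). Its levels were 11.29, 11.21, 10.83 and 10.98 in DMSO and 18.003, 17.83, 17.75 and 17.59 in LPS+DMSO, and the arrays of each group lay close together. The change was alike on the slides, with 6.67 on slide 1 and 6.76 on slide 2. Tnfsf9, the ligand of the costimulatory receptor 4-1BB, rose 7.77-fold, and Lta, which encodes lymphotoxin alpha, 2.28-fold with a signal well above background on 2 of 4 DMSO and 3 of 4 LPS+DMSO arrays. Of 16 TNF superfamily ligands, 6 were tested, 3 rose and 0 fell.

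Of 15 CC chemokines, which attract monocytes and T cells, 8 were tested and 6 rose (75%), with 0 lowered and a median log2 change of 2.40 over the list. Ccl4 had levels of 14.18, 14.06, 13.72 and 13.49 in DMSO and 18.15, 18.04, 18.04 and 17.94 in LPS+DMSO. It rose 18.1-fold (log2 change 4.18, SE 0.13, adjusted p = 1.4e-11) from a signal well above background on all DMSO arrays. Ccl2 (MCP-1) gave 11.89, 11.93, 11.29 and 11.05 in DMSO and 15.20, 15.24, 15.25 and 15.65 in LPS+DMSO, a rise of 13.8-fold, and Ccl7 rose 13.95-fold, Ccl3 5.48-fold and Ccl12 5.07-fold. Ccl5 (RANTES) had levels of 11.26, 13.95, 11.04 and 11.13 in DMSO and 13.60, 13.46, 13.58 and 13.75 in LPS+DMSO, so the groups overlapped through the DMSO array of replicate 2. Its log2 change of 1.75 (adjusted p = 0.024) was not called without replicate 1 (1.55, adjusted p = 0.17), 3 (1.49, 0.16) or 4 (1.46, 0.19), nor in the fit of the 8 arrays alone (adjusted p = 0.095). Ccl9 changed by 0.56 (log2) and was not called.

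Cxcl2, a neutrophil attractant, had the largest fitted change of all. Its levels were 6.71, 7.81, 4.44 and 4.18 in DMSO and 15.87, 15.89, 15.72 and 16.01 in LPS+DMSO. The arrays with LPS agreed closely (SD 0.12) while those without it spread widely (SD 1.77), being higher on slide 1, and only 2 of the 4 DMSO arrays had a signal well above background. The log2 change was 10.09 (SE 0.58, adjusted p = 7.1e-09), 8.62 on slide 1 and 11.56 on slide 2. Cxcl10, which attracts activated T cells through CXCR3, had levels of 10.38, 11.41, 9.07 and 8.60 in DMSO and 17.28, 17.44, 17.40 and 17.35 in LPS+DMSO. It rose 182-fold (log2 change 7.50, SE 0.42, adjusted p = 5.5e-09), and its other probe rose by 9.02 (log2). Of 12 CXC chemokines 5 were tested and these 2 rose. Cxcl1, Cxcl3 and Cxcl9 were not well above background on all 4 arrays of any condition and were not tested.

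**Figure D2:**
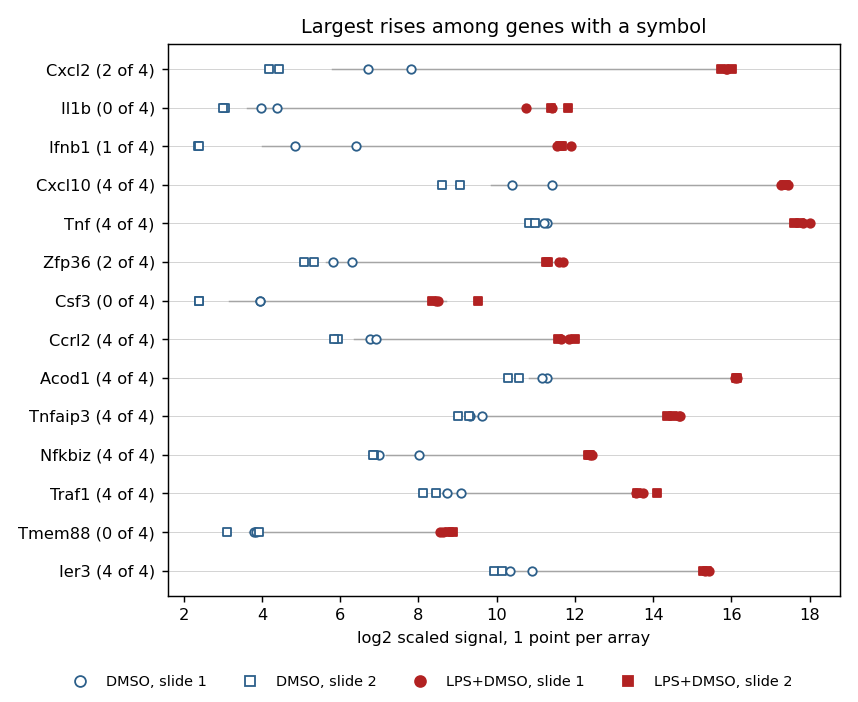
Log2 scaled signal on each array (1 point per array) for 14 of the genes with a symbol whose levels rose the most, open for DMSO and filled for LPS+DMSO, with circles for slide 1 and squares for slide 2. In brackets stands the number of DMSO arrays on which the probe was well above background. The LPS+DMSO arrays lie close together and far to the right, and the DMSO arrays of slide 2 tend to lie lowest, most clearly for Cxcl2 (log2 change 10.09).

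Among 24 interleukins and colony stimulating factors, 12 were tested, 6 rose and 1 fell. Il1b, the inflammatory interleukin 1 beta, had no signal well above background on the DMSO arrays (0 of 4) and was well above it on all 4 with LPS. Its signals were 3.97, 4.39, 3.06 and 3.02 in DMSO and 10.74, 11.41, 11.39 and 11.82 in LPS+DMSO. With the processing used here this amounts to a rise of at least 65.2-fold (adjusted p = 8.4e-10). Csf3, the granulocyte colony stimulating factor, was likewise seen only with LPS among these 8 arrays. Its signals of 3.94, 3.96, 2.39 and 2.38 in DMSO and 8.51, 8.46, 8.34 and 9.53 in LPS+DMSO give a rise of at least 10.5-fold (adjusted p = 3.8e-07). Osm (oncostatin M) rose 16.03-fold and Il1rn, the antagonist of the interleukin 1 receptor, 3.12-fold. Csf1 had levels of 10.096, 12.12, 8.95 and 8.80 in DMSO and 12.44, 12.25, 11.78 and 11.93 in LPS+DMSO, and the DMSO array of replicate 2 lay within the range with LPS. It rose 4.32-fold, with a log2 change of 2.82 without that array, and the call was lost without replicate 1 (log2 change 2.03, adjusted p = 0.090), 3 (1.87, 0.10) or 4 (1.77, 0.097). Il16 stood at the limit, with a log2 change of -1.02, and was not called without replicate 1 (-0.99), 3 (-0.99) or 4 (-0.96).

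Il6 was weaker and less certain. Its signals were 3.94, 6.59, 2.38 and 2.38 in DMSO and 7.28, 7.004, 5.64 and 6.33 in LPS+DMSO, and of the DMSO arrays only that of replicate 2 had a signal well above background. The highest DMSO array lay above the lowest LPS+DMSO arrays. The fitted log2 change was 2.74 (SE 0.74, adjusted p = 0.020). The call was lost without replicate 1 (2.54, adjusted p = 0.12), 3 (2.57, 0.093) or 4 (2.34, 0.15), in the fit of the 8 arrays alone (adjusted p = 0.080) and after normexp background correction (log2 change 0.83). Il10, Il1a, Il12b and Il23a were not well above background on all 4 arrays of any condition and were not tested.

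Several genes of the IkB family and some subunits of NF-kB rose. Of 12 tested genes for subunits and regulators of NF-kB, 7 rose and 0 fell, with a median log2 change of 1.38. Nfkbia, which encodes the inhibitor IkB-alpha, had levels of 13.70, 13.78, 13.57 and 13.48 in DMSO and 16.89, 17.04, 16.89 and 16.82 in LPS+DMSO. It rose 9.72-fold (log2 change 3.28, SE 0.08, adjusted p = 7.0e-13). Nfkbiz, the nuclear IkB-zeta, had levels of 6.99, 8.003, 6.87 and 6.83 in DMSO and 12.42, 12.39, 12.38 and 12.33 in LPS+DMSO and rose 37.0-fold (log2 change 5.21, SE 0.22, adjusted p = 2.4e-10). Of the other IkB family genes, Nfkbid, Nfkbie and Bcl3 rose 4.49-fold, 3.36-fold and 2.57-fold, and the subunits Relb and Nfkb2 3.26-fold and 2.64-fold. Nfkbib (IkB-beta) changed by 0.98 (log2), just short of 2-fold, and was called without replicate 2 (1.17). Rela and Nfkb1, which encode p65 and p105/p50, changed by 0.73 and 0.61 (log2) and stayed under 2-fold.

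Feedback regulators of TNF receptor and TLR signalling showed 7 of 25 tested genes raised and 0 lowered. Tnfaip3 (A20), an enzyme that edits ubiquitin chains on signalling proteins, had levels of 9.63, 9.31, 9.28 and 9.01 in DMSO and 14.66, 14.68, 14.50 and 14.35 in LPS+DMSO. It rose 37.8-fold (log2 change 5.24, SE 0.13, adjusted p = 7.0e-13). Traf1, an adaptor of TNF receptors, had levels of 9.09, 8.72, 8.44 and 8.11 in DMSO and 13.74, 13.56, 13.58 and 14.09 in LPS+DMSO and rose 35.6-fold (log2 change 5.16, SE 0.21, adjusted p = 1.3e-10). Tnip3 rose 3.29-fold, Birc3 3.17-fold, Peli1 2.79-fold and Tank 2.52-fold. The kinase Ripk2 rose 2.09-fold (well above background on 2 of 4 DMSO arrays) and fell short of 2-fold without replicate 4 (log2 change 0.90). Traf6, a ubiquitin ligase of the pathway, changed by 0.19 (log2) and was not called.

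Immediate early genes were the list with the second highest share of calls. Of 26 tested members of the Egr, Nr4a and Ier group 18 rose (69.2%) and 0 fell, with a median log2 change of 2.26. Ier3, an early response gene linked to survival, had levels of 10.33, 10.90, 9.94 and 10.14 in DMSO and 15.43, 15.32, 15.28 and 15.37 in LPS+DMSO and rose 32.6-fold (log2 change 5.03, SE 0.17, adjusted p = 1.9e-11). Nr4a1, an orphan nuclear receptor, had levels of 8.86, 8.29, 8.88 and 8.60 in DMSO and 12.87, 13.48, 13.55 and 13.45 in LPS+DMSO and rose 25.6-fold. Egr1, a zinc finger factor induced by many growth signals, rose from below background (0 of 4 DMSO arrays). Its signals of 4.05, 4.08, 4.67 and 4.25 in DMSO and 9.40, 9.13, 8.90 and 8.92 in LPS+DMSO give a rise of at least 13.3-fold (adjusted p = 3.0e-09). Egr2 rose 19.9-fold, Phlda1 24.3-fold, Arc 14.3-fold, Pim1 14.2-fold and Btg2 12.7-fold. The fitted rise of Myc was 11.8-fold, with a signal well above background on 1 of 4 DMSO arrays.

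AP-1 subunits and related factors rose in 9 of 19 cases and fell in 0. Fos had levels of 6.48, 6.06, 6.62 and 6.13 in DMSO and 10.97, 11.04, 11.04 and 10.93 in LPS+DMSO and rose 25.5-fold (log2 change 4.67, SE 0.15, adjusted p = 1.1e-11) with a signal well above background on 2 of 4 DMSO arrays. Junb had levels of 7.21, 5.81, 7.12 and 7.08 in DMSO and 11.56, 11.45, 11.14 and 11.71 in LPS+DMSO. It rose 25.2-fold, and the DMSO array of replicate 2, not well above background, lay under the other 3. Maff, a small Maf protein, had levels of 7.90, 7.84, 7.46 and 7.08 in DMSO and 12.35, 12.48, 12.35 and 12.47 in LPS+DMSO and rose 28.7-fold (log2 change 4.84, SE 0.18, adjusted p = 7.7e-11). Atf3, a repressor of inflammatory genes, started from levels well above background (12.94, 13.59, 12.73 and 12.89 in DMSO and 16.26, 16.09, 16.07 and 16.26 in LPS+DMSO) and rose 8.76-fold. Fosb rose 6.90-fold (well above background on 2 of 4 DMSO arrays), Fosl2 4.00-fold, Jun 3.47-fold, Fosl1 2.96-fold and Jund 2.78-fold. Cebpd, at a log2 change of 1.00, stood at the 2-fold limit and was not called. Of 10 tested Kruppel-like factors only Klf6 was called, with a rise of 2.21-fold.

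Inhibitors of the signal and of its mRNAs rose as well. Among the dual-specificity phosphatases, which inactivate MAP kinases, 6 of 13 tested rose and 1 fell. Dusp1 had levels of 7.49, 8.61, 7.67 and 7.86 in DMSO and 11.77, 11.94, 11.90 and 12.48 in LPS+DMSO and rose 17.3-fold (log2 change 4.11, SE 0.22, adjusted p = 2.8e-09). Dusp2 had levels of 10.78, 10.72, 10.90 and 10.73 in DMSO and 14.26, 14.29, 14.11 and 14.08 in LPS+DMSO and rose 10.6-fold. Dusp8 (0 of 4 DMSO arrays) rose at least 7.49-fold, Dusp5 rose 11.6-fold (well above background on 1 of 4 DMSO arrays), Dusp16 3.90-fold and Dusp4 3.27-fold. Dusp6, a phosphatase specific to ERK, went the other way and fell 2.54-fold.

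Zfp36 (tristetraprolin), which binds AU-rich elements and speeds the decay of cytokine mRNAs, had levels of 6.29, 5.81, 5.07 and 5.34 in DMSO and 11.71, 11.60, 11.32 and 11.26 in LPS+DMSO. It rose 57.5-fold (log2 change 5.85, SE 0.31, adjusted p = 2.9e-09), well above background on 2 of 4 DMSO arrays. Zc3h12a (regnase-1), an RNase that cleaves cytokine mRNAs, had levels of 6.13, 3.90, 5.76 and 6.04 in DMSO and 10.02, 10.17, 10.06 and 10.38 in LPS+DMSO. Its rise of 26.0-fold also rests on 2 of 4 DMSO arrays, and the array of replicate 2 lay lowest. Zc3h12c rose 2.92-fold. The other 19 of 22 tested decay regulators, deadenylases of the Ccr4-Not complex among them, were not called. Of 9 tested suppressors of cytokine signalling, Socs3 (levels 10.24, 9.92, 10.48 and 10.62 in DMSO and 12.75, 13.34, 13.17 and 13.76 in LPS+DMSO) rose 7.67-fold and Cish rose at least 2.68-fold from below background.

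Ifnb1, which encodes interferon beta, had signals of 4.85, 6.398, 2.37 and 2.40 in DMSO and 11.91, 11.54, 11.62 and 11.66 in LPS+DMSO, and of the 4 without LPS only the array of replicate 2 had a signal well above background. The log2 change was 7.67 (SE 0.65, adjusted p = 6.3e-07), 6.10 on slide 1 and 9.25 on slide 2. Of 34 tested genes on the list of interferon-stimulated genes, which counts Ifnb1, 7 rose and 1 fell, and the median log2 change was -0.10. Rsad2, Isg15 and Oasl1, antiviral genes, rose 7.74-fold, 6.99-fold and 6.64-fold. Ifit1 rose 3.29-fold, Gbp2 3.23-fold (well above background on 1 of 4 DMSO and 3 of 4 LPS+DMSO arrays) and Ifih1, the RNA sensor MDA5, 2.74-fold. Stat2, a part of the interferon-activated factor, had levels of 11.11, 11.77, 10.82 and 10.83 in DMSO and 10.06, 9.95, 9.60 and 9.84 in LPS+DMSO and fell 2.41-fold. The other 26 were not called. Without replicate 3 or without replicate 4 only 3 genes of the list were called raised. Isg15 lost its call without replicate 3 (log2 change 2.42, adjusted p = 0.054), Rsad2 without replicate 4 (2.44, 0.055), Ifih1 without either (1.31, 0.066 and 1.096, 0.091), and Ifit1 and Gbp2 without replicate 1, 3 or 4 (1.23 to 1.80 for Ifit1 and 1.28 to 1.59 for Gbp2).

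The DMSO array of replicate 2 stood apart in these genes. In DMSO, 33 of the 34 were highest on the array of replicate 2, beside 5614 of 15868 over all genes tested and 36 of 43 ribosomal protein genes. For the 34, the median deviation from the mean of the group was 0.40, 1.13, -0.76 and -0.94 (log2) over replicates 1 to 4. Isg15 had levels of 12.97, 14.14, 11.01 and 10.89 in DMSO and 15.45, 14.97, 14.98 and 14.83 in LPS+DMSO, so that the array without LPS from replicate 2 lay above the other DMSO arrays and close to those with LPS. Rsad2 had levels of 10.00, 11.66, 8.02 and 7.81 in DMSO and 12.83, 12.17, 12.001 and 12.31 in LPS+DMSO. In LPS+DMSO the deviations were smaller, at 0.53, 0.10, -0.37 and -0.27. Without the DMSO array of replicate 2 the list had 8 raised and 1 lowered genes, and its median turned to 0.25. No such pattern was present in the immediate early genes, with deviations in DMSO of 0.02, 0.11, -0.06 and 0.00. The CC chemokines were also higher in DMSO on slide 1, with deviations of 0.34, 0.35, -0.23 and -0.48. Replicates 1 and 2 shared slide 1, and the DMSO arrays of replicates 3 and 4, both low, shared slide 2, so the difference between the slides cannot be told apart from one between those days.

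**Figure D3:**
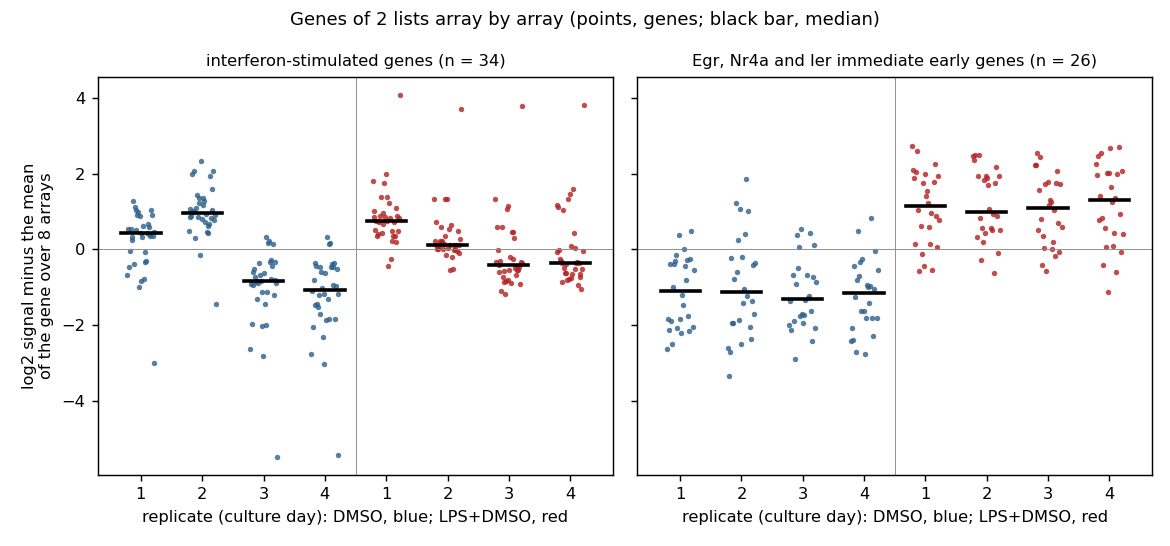
Log2 scaled signal of each gene minus its mean over the 8 arrays, for the 34 interferon-stimulated genes (left) and the 26 immediate early genes (right), by array, with DMSO in blue, LPS+DMSO in red and the median as a black bar. The interferon-stimulated genes are highest on the DMSO array of replicate 2 and low on those of replicates 3 and 4, while the immediate early genes have like medians on the 4 arrays of a group.

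Of the transcription factors of the interferon system, 0 of 9 tested members of the IRF list rose and 1, Irf2bp2, a corepressor, fell 2.23-fold. The fall of Irf2bp2 was under 2-fold without replicate 3 (log2 change -0.99). Irf1, an activator of interferon responses, had levels of 11.45, 11.81, 11.46 and 11.33 in DMSO and 12.62, 12.79, 12.42 and 12.23 in LPS+DMSO, so the groups did not overlap. Its log2 change of 1.00 was not called (SE 1.20, adjusted p = 0.70) in the fit of all 16 arrays, which share 1 estimate of the spread. In the fit of the 8 arrays alone the adjusted p was 0.0026.

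Effectors that are typical of activated macrophages were in part raised already. Of 31 such genes 17 were tested, 7 rose and 0 fell. Acod1, which makes itaconate, had levels of 11.28, 11.16, 10.57 and 10.29 in DMSO and 16.14, 16.09, 16.13 and 16.13 in LPS+DMSO and rose 39.3-fold (log2 change 5.30, SE 0.18, adjusted p = 1.9e-11). The acute phase protein gene Saa3 rose 11.2-fold, with DMSO levels from 7.05 to 10.54, and Clec4e (Mincle) 6.58-fold. Plaur, Slpi and C3 rose 4.09-fold, 2.62-fold and 2.57-fold. Nos2, the inducible nitric oxide synthase, changed by 0.86 and Sod2 by 0.90 (log2), both under 2-fold. Of 15 tested enzymes and receptors of the prostanoid and leukotriene pathways only Ptgs2 (COX-2) was called. Its levels were 9.17, 9.37, 8.99 and 8.48 in DMSO and 12.09, 12.44, 11.92 and 12.25 in LPS+DMSO, a rise of 9.0-fold.

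Surface molecules for contact with other cells rose in 6 of 18 cases and fell in 1. Cd83 had levels of 12.10, 11.60, 12.28 and 12.40 in DMSO and 14.93, 15.07, 15.17 and 15.30 in LPS+DMSO and rose 8.15-fold. Icam1, a ligand of leukocyte integrins, had levels of 9.13, 9.38, 9.002 and 8.82 in DMSO and 11.82, 11.77, 11.78 and 11.64 in LPS+DMSO and rose 6.37-fold. Sdc4 rose 3.17-fold. Cd40, which receives signals from T cells, rose 3.5-fold, a call that was lost without replicate 1 (log2 change 1.72, adjusted p = 0.17), 3 (1.55, 0.19) or 4 (1.36, 0.22). The DMSO array of replicate 2 for Cd40 (9.52) lay above every LPS+DMSO array (8.95 to 9.28), so the groups overlapped. Cd274 (PD-L1) fell 2.14-fold, and under 2-fold without replicate 2 (log2 change -0.99). The costimulator Cd80 changed by -0.54 (log2) and was not called.

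In the sensing machinery itself 4 of 23 tested genes rose. Tlr2, the receptor for bacterial lipoproteins, had levels of 13.34, 12.59, 13.16 and 12.95 in DMSO and 15.31, 15.40, 15.51 and 15.56 in LPS+DMSO and rose 5.41-fold. Cd14 had levels of 15.42, 15.02, 15.41 and 15.52 in DMSO and 16.43, 16.39, 16.35 and 16.68 in LPS+DMSO and rose 2.18-fold. The kinase Ikbke and the adaptor Ticam1 (TRIF) rose 2.83-fold and 2.81-fold. Tlr4, the receptor of LPS, had levels of 11.22, 11.13, 11.28 and 11.05 in DMSO and 10.26, 10.64, 10.31 and 10.49 in LPS+DMSO. The groups did not overlap and the change of -0.74 (adjusted p = 5.5e-05) fell short of 2-fold. Myd88 changed by 0.21. Of 11 tested inflammasome genes only Nlrp3 was called, with levels of 8.14, 7.37, 7.24 and 7.46 in DMSO and 10.87, 11.01, 10.75 and 11.38 in LPS+DMSO and a rise of 10.96-fold (adjusted p = 2.8e-06).

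Receptors for chemokines and other attractants showed 3 of 18 tested genes raised and 2 lowered. Ccrl2, a receptor that binds chemerin, had levels of 6.76, 6.91, 5.94 and 5.84 in DMSO and 11.63, 11.84, 11.58 and 11.995 in LPS+DMSO and rose 42.3-fold (log2 change 5.403, SE 0.21, adjusted p = 1.0e-10). Gpr84, a receptor for medium-chain fatty acids, rose 7.28-fold and C5ar1, the receptor of complement C5a, 6.31-fold (well above background on 3 of 4 DMSO arrays). S1pr1, a receptor of sphingosine 1-phosphate, fell 2.26-fold. Cxcr4, the receptor of CXCL12, fell 2.11-fold, and its call was lost without any 1 of the 4 replicates (log2 change -0.88 to -1.20).

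Among 37 tested transcription factors of the myeloid lineage 6 rose and 2 fell. Of the 6, 3 were inhibitors of basic helix-loop-helix factors (Id1, Id2 and Id3). Id3 had levels of 3.84, 5.69, 5.78 and 6.97 in DMSO and 10.00, 10.29, 10.65 and 10.81 in LPS+DMSO (well above background on 2 of 4 in DMSO) and rose 29.3-fold (log2 change 4.87, SE 0.54, adjusted p = 1.1e-05). Id2 had levels of 9.42, 8.92, 9.53 and 9.45 in DMSO and 12.47, 12.48, 12.27 and 12.77 in LPS+DMSO and rose 9.0-fold. Id1 rose 2.13-fold (3 of 4 DMSO arrays), Ets2 2.36-fold, Bcl6 2.28-fold and Hivep3 2.16-fold, the last under 2-fold without replicate 2 (log2 change 0.99). Hhex, a homeobox gene of blood progenitors, had levels of 12.01, 11.62, 12.04 and 11.93 in DMSO and 10.42, 10.35, 10.37 and 9.78 in LPS+DMSO and fell 3.18-fold. Ikzf1 (Ikaros) had levels of 8.80, 8.74, 9.15 and 9.09 in DMSO and 6.18, 7.02, 7.29 and 7.19 in LPS+DMSO and fell 4.07-fold by its brightest probe, but its other probe changed by -0.40 only. Of 39 tested macrophage identity and scavenger receptor genes 0 rose and 1 fell. The gene that fell was Fcgr1, a high-affinity receptor for antibodies, at 2.20-fold, and it was not called without replicate 2 (log2 change -0.85) or 3 (-1.21, adjusted p = 0.058).

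Of 20 tested regulators of cell survival 3 rose, 1 fell and 16 were not called, with a median log2 change of 0.11. Bcl2l11 (Bim), which promotes apoptosis, had levels of 7.24, 7.42, 7.37 and 7.46 in DMSO and 9.32, 9.19, 9.48 and 9.67 in LPS+DMSO and rose 4.12-fold. Bmf, of the same family, had levels of 9.81, 9.76, 10.46 and 10.45 in DMSO and 7.77, 8.05, 8.22 and 7.88 in LPS+DMSO and fell 4.41-fold. The protective genes Cflar and Mcl1 rose 4.51-fold and 2.48-fold, though 1 of the 4 probes of Cflar changed by -0.28. Of 18 tested p53 target genes 5 rose, namely Btg2, Gdf15 (8.72-fold), Plk2 (8.46-fold), Cdkn1a (2.69-fold) and Mdm2 (2.48-fold), of which Btg2, Cdkn1a and Plk2 also stand on other lists. Bax, Bbc3 and Pmaip1, p53 targets that promote apoptosis, changed by -0.11, 0.63 and 0.60 (log2) and were not called.

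Where 2.09% of all genes tested rose and 2.49% fell, 0 calls in lists of this size are close to that share. There were 0 among 43 tested ribosomal protein genes (median log2 change -0.03), 20 glycolysis genes (0.03), 20 ATF4 and NRF2 stress genes (0.05), 21 polyadenylation factors (0.11), 42 replication-dependent histone genes (-0.23) and 11 reference genes (0.04). Of 13 heat shock chaperones Dnajb1 alone rose (3.27-fold), and of 29 cyclins and proliferation genes Cdkn1a alone. Of 11 circadian clock genes 1, Cry2, fell (2.09-fold, and under 2-fold without the LPS+DMSO array of replicate 4, at a log2 change of -0.98). Rpl28, with levels of 17.68, 17.69, 17.45 and 17.74 in DMSO and 17.65, 17.65, 17.70 and 17.61 in LPS+DMSO, changed by 0.01, and Csf1r, with levels of 17.03, 16.09, 16.98 and 16.83 in DMSO and 16.88, 16.83, 16.73 and 16.73 in LPS+DMSO, by 0.06.

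**Figure D4:**
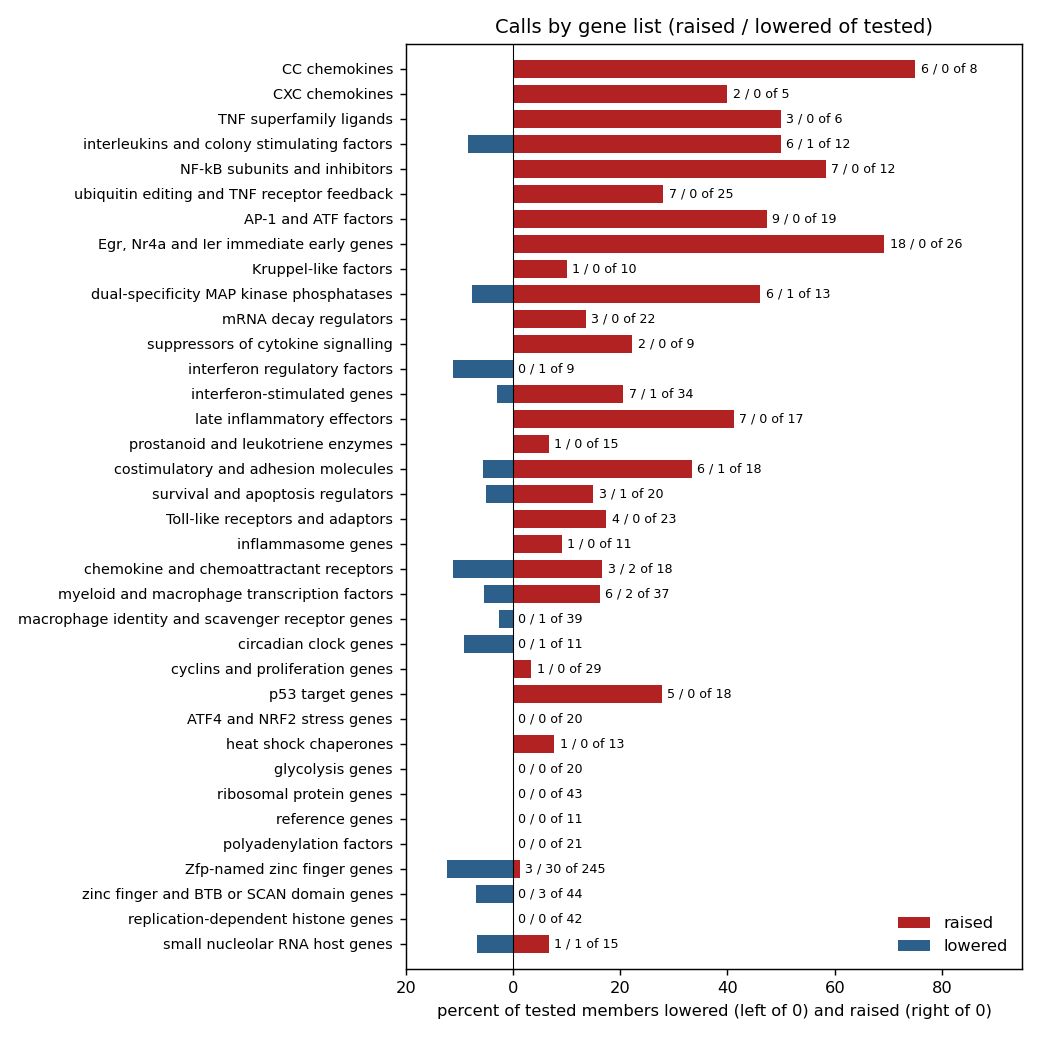
Share of the tested members of each of 36 gene lists that LPS raised (red, right of 0) or lowered (blue, left of 0), in percent, with the numbers raised, lowered and tested beside each bar. Shares run from 75% raised for CC chemokines and 69.2% for immediate early genes to none for ribosomal proteins, and the Zfp-named genes are the list with the largest share lowered (12.2%).

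The 36 lists together held 922 tested genes, of which 113 rose and 46 fell. A further 142 raised genes with a symbol stood on none of them. Some were chosen here after their values were seen. Pde4b, which degrades cyclic AMP, rose 19.7-fold (well above background on 3 of 4 DMSO arrays), Kdm6b, a demethylase of histone H3 lysine 27, 18.6-fold, Hcar2, a receptor for niacin and ketone bodies, 5.72-fold, Nod2, a sensor of bacterial peptidoglycan, 3.58-fold, and Trib1, a pseudokinase, 10.6-fold (2 of 4 DMSO arrays). Tmem88, a membrane protein gene, had the largest fitted change outside the lists, though only a bound can be given. Its signals of 3.80, 3.85, 3.12 and 3.91 in DMSO and 8.63, 8.55, 8.78 and 8.89 in LPS+DMSO were below background in DMSO and amount to a rise of at least 10.6-fold. The Tmem88 probe (chr11:69210910-69210969, mm9) lies near the Kdm6b probe (chr11:69212177-69212236), and whether these rises are independent was not tested.

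The lowered genes were of other kinds. Of the 395, 194 were still well above background on all 4 arrays with LPS and 46 on 0 of 4, and 168 had no gene symbol. Of the 15 largest falls with a symbol, 5 are RIKEN transcripts without a descriptive name. D130051D11Rik, a long noncoding RNA gene, had signals of 6.80, 7.87, 6.98 and 6.97 in DMSO and 3.65, 3.84, 3.72 and 3.37 in LPS+DMSO, below background on all arrays with LPS, which is a fall of at least 3.85-fold (adjusted p = 1.7e-08). The transcript 2610507I01Rik had signals of 6.42, 6.82, 6.91 and 7.35 in DMSO and 3.65, 3.95, 3.61 and 4.12 in LPS+DMSO, a fall of at least 3.17-fold. Cbx2, a subunit of Polycomb repressive complex 1, remained above background with levels of 8.56, 8.49, 8.45 and 8.86 in DMSO and 6.24, 6.31, 6.22 and 5.92 in LPS+DMSO and fell 5.35-fold (log2 change -2.42, SE 0.14, adjusted p = 5.7e-09). Cbx8 of the same complex, chosen after its value was seen, fell 3.7-fold (3 of 4 arrays with LPS well above background). Wdr5b had signals of 6.94, 6.92, 6.74 and 6.61 in DMSO and 3.59, 4.18, 4.82 and 4.02 in LPS+DMSO. It was well above background on 1 of 4 arrays with LPS, and its fitted fall was 6.28-fold. Ppp1r3d, a glycogen-targeting subunit of protein phosphatase 1, fell 5.24-fold (1 of 4 arrays) and Gpx2, a glutathione peroxidase, 4.53-fold (2 of 4 arrays).

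**Figure D5:**
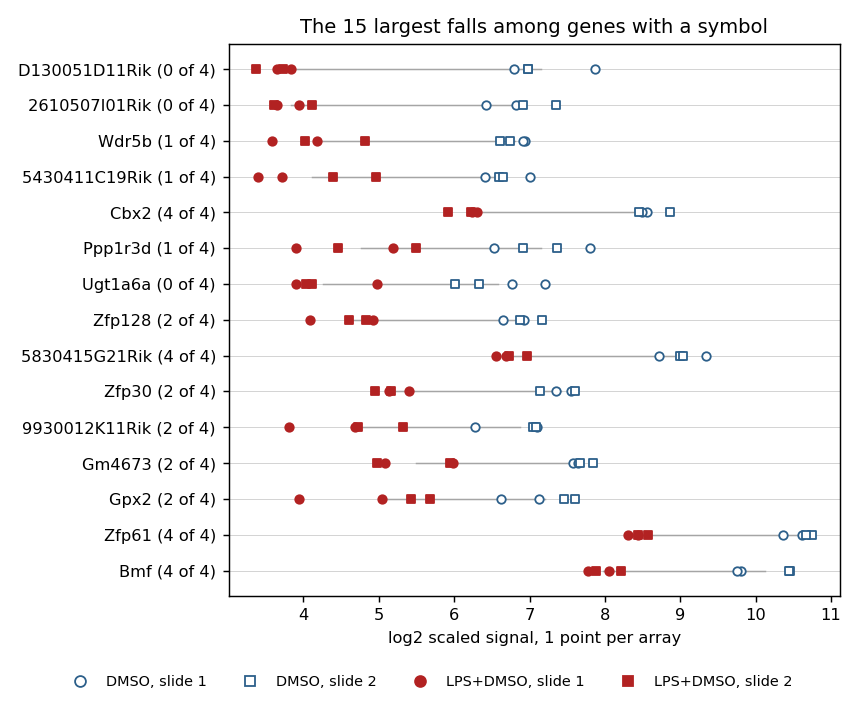
Log2 scaled signal on each array for the 15 genes with a symbol whose levels fell the most, with symbols as in the plot of the largest rises. In brackets stands the number of LPS+DMSO arrays on which the probe was well above background. The groups do not overlap for any of the 15, and only 4 of them (Cbx2, 5830415G21Rik, Zfp61 and Bmf) were well above background on all arrays with LPS.

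Of the 36 lists, the zinc finger genes held the most lowered members. Of 349 genes named Zfp, 245 were tested, 30 fell (12.2%, against 2.49% of all genes tested) and 3 rose, and the median log2 change was -0.36 against -0.04 over all genes tested. They share the name and not 1 domain. Zfp36, the raised gene described above, is no member of the C2H2 class of DNA-binding proteins to which most of the others belong, and the other raised members were Zfp703 (2.59-fold) and Zfp568 (2.28-fold). The change was below 0 for 191 of the 245 (78.0%, against 57.2% of all genes tested), and 136 (55.5%, against 22.3%) were lower with LPS on all 4 days. The 30 falls ranged from -1.07 to -2.30 (log2), and 28 of them were at least 2-fold on both slides. Zfp61 had levels of 10.37, 10.62, 10.75 and 10.68 in DMSO and 8.31, 8.44, 8.44 and 8.57 in LPS+DMSO and fell 4.48-fold (log2 change -2.16, SE 0.11, adjusted p = 1.1e-09). Zfp128 had levels of 6.93, 6.65, 6.88 and 7.16 in DMSO and 4.08, 4.92, 4.60 and 4.82 in LPS+DMSO and fell 4.91-fold, and Zfp30 had levels of 7.36, 7.55, 7.14 and 7.61 in DMSO and 5.13, 5.396, 4.95 and 5.17 in LPS+DMSO and fell 4.76-fold, both well above background on 2 of 4 arrays with LPS. Only 13 of the 30 were well above background on all 4 arrays with LPS, and the number that fell was 14 after normexp background correction and 15 in the authors' values, while the median of the list stayed at -0.34 and -0.29. Among genes with BTB or SCAN domains, often in proteins with the same zinc fingers, 3 of 44 tested fell (Zkscan14 3.78-fold, Zbtb14 2.84-fold and Zscan20 2.34-fold, the last well above background on 3 of 4 arrays with LPS) and 0 rose.

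Other lowered genes with a known role were few on the lists. Malat1, a nuclear long noncoding RNA, had levels of 11.22, 11.20, 11.39 and 11.41 in DMSO and 10.31, 10.21, 10.07 and 9.90 in LPS+DMSO and fell 2.26-fold. Chosen after their values were seen, Txnip, which binds thioredoxin and limits glucose uptake, fell 2.89-fold, Pik3ip1, an inhibitor of PI3 kinase, 4.18-fold and Angptl4, an inhibitor of lipoprotein lipase, 3.98-fold.

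In all, 12 genes were switched on, with no probe well above background on any DMSO array and a signal well above it on all 4 arrays with LPS. Of these, 8 had a symbol: Il1b, Egr1, Tmem88, Csf3, Dusp8, Iglon5 (at least 3.93-fold), Cish and Gm614 (at least 2.21-fold). A bound sets the mean signal with LPS against the mean over DMSO arrays of the lowest signal there that was well above background, or of the probe's own signal where that was higher. Such bounds hold only for the processing used here. Under the alternatives the log2 change went down to 4.67 for Il1b, 2.36 for Egr1, 2.39 for Csf3, 2.34 for Tmem88 and 1.77 for Dusp8. For D130051D11Rik and 2610507I01Rik it shrank to -1.34 and -1.02. All of these fall short of the bounds. Cish (0.96) and Ugt1a6a (-0.85) lost their call in 1 alternative and Gm614 (0.47) in 3. Another 9 genes were switched off in the same sense, 5 of them with a symbol, among them 2 transcripts with RIKEN or Gm names not described above and Ugt1a6a, an enzyme that conjugates glucuronic acid (at least 2.59-fold). The largest fall was that of a transcript without a gene symbol, with signals of 8.04, 7.83, 8.40 and 8.55 in DMSO and 3.56, 3.77, 2.33 and 2.44 in LPS+DMSO, which is at least 7.98-fold. Among these 2 conditions the genes switched on passed the filter through their level with LPS alone, and those switched off through their level in DMSO, so their direction is no result.

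The called genes spanned less of the genome than most. The raised protein-coding genes (235) spanned a median of 11.4 kb from first to last base in the RefSeq annotation (quartiles 4.21 and 21.7 kb), against 12.6 kb for the lowered (157; quartiles 5.66 and 21.3 kb) and 21.6 kb for all tested (11090; quartiles 9.40 and 48.9 kb). Spans under 5 kb were found for 29.8% of raised, 22.3% of lowered and 12.8% of all tested genes. These differences were not tested. Probes for intergenic transcripts were tested in 1623 cases, of which 35 rose (2.16%) and 86 fell (5.30%), beside 2.09% and 2.49% over all genes. Where a raised gene had several probes (68 genes), all of them moved up in 65 cases and all at least 2-fold in 51. For lowered genes (72) these numbers were 70 and 49.

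Of the 332 raised genes 323 were higher with LPS on all 4 days, and of the 395 lowered genes 387 were lower, which their selection on the same arrays favours. Of all 15873 genes tested, 5384 kept 1 direction on the 4 days. The groups did not overlap for 316 of the raised and 367 of the lowered genes, where 6.68% and 12.2% of all genes tested showed such a separation upwards and downwards. The median change of the raised genes was 1.77, 1.72, 1.69 and 2.03 on days 1 to 4, and that of the lowered genes -1.31, -1.57, -1.34 and -1.41. Arrays with LPS agreed better than those without it for the raised genes, with a median SD over the 4 arrays of 0.21 against 0.34 (0.16 and 0.21 over all genes).

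The same response was measured in the presence of cordycepin on separate arrays (LPS+cordycepin against cordycepin, n = 4 each), where LPS raised 271 genes (1.71%) and lowered 190 (1.20%). Of the 332 genes raised without cordycepin, 184 were called raised there too and 322 changed in the same direction, with a median log2 change of 1.19. A test of the difference between the responses (interaction in limma) found it smaller with cordycepin for 36 of the 332 and larger for 1, where 0.258% and 0.290% of all genes were called below and above 0. The 332 raised and 395 lowered genes were chosen on arrays that enter this difference, which favours a smaller response with cordycepin. Tnf rose by 6.72 (log2) without and 5.18 with cordycepin (adjusted p = 0.00038 for the difference), Acod1 by 5.30 and 3.25 (adjusted p = 0.0014) and Nfkbia by 3.28 and 2.55 (adjusted p = 0.011). For Cxcl10 the values were 7.50 and 6.77 (adjusted p = 0.92), for Zfp36 5.85 and 5.76 (adjusted p = 0.99) and for Fos 4.67 and 4.54 (adjusted p = 0.96), so no difference was detected. Of the 395 lowered genes, 152 were lowered there and 389 changed in the same direction, and 16 differed by the test. Of the 30 lowered Zfp genes 17 were called lowered with cordycepin as well. The transcript 2610507I01Rik fell by 3.04 (log2) without cordycepin and changed by -0.05 with it (adjusted p = 0.00034).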

How the data were processed

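RNA of RAW 264.7 cells was labelled with Cy3 and hybridised to 1-colour Agilent 8x60K mouse arrays (annotation on mm9), 16 arrays on 2 slides, 4 per condition. Per the file headers, the deposited intensity is the processed signal of Feature Extraction (10.7.3.1; 10.10.1.1 per the labels), already corrected for background. The authors also deposited a log2 value table of the same arrays, used only as an alternative. Neither comparison columns nor other samples' columns were used.

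The log2 intensities were scaled by the 75th percentile over 18138 probes with a signal well above background throughout the 16 arrays. Of 55681 probes, 21591 passed the filter, a signal well above background on the 4 arrays of 1 or more conditions (76 missing values), and the brightest probe stood for each of 15873 genes. Probes were named through their accession (27656), symbol (3401) or synonym (321) in the RefSeq table, otherwise by the file (24303). limma 3.58.1 (R 4.3.3) fitted the means of the 4 conditions on all 16 arrays, with Benjamini-Hochberg adjustment over all genes. The number of arrays limits the precision. On simulated data 198 of 200 changed genes were recovered, with 3 false calls. The simulated noise was independent between arrays, without a day, a slide or a background floor. All the changes set were larger than the 2-fold minimum, so the recovery does not hold for changes near it.

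Groups and replicate numbers came from the labels, whose design text assigns each number its own day, so the numbers pair the samples. The residuals of same-numbered samples correlated with a mean of 0.197 (-0.059 to 0.439, above 0.1 in 20 of 24 pairs), those of other numbers on the same slide with 0.176 (19 of 24) and those on different slides with -0.187, so the correlation does not separate day from slide. Named genes were the 15 largest rises and falls, up to 4 members with the largest change of each list, up to 10 genes switched on or off, and 12 fixed genes. The result of 1 such gene is not reported here. The members and lists were chosen with earlier results of these data known. Promoters came from RefSeq (GRCm38.p6). Alternatives covered scaling, background correction, filter, probe choice, blocks, variance model, thresholds, test and omitted replicates.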

Additional observations from a re-analysis of the deposited data

Results flagged for a closer look

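Within a group of 4, 1 array lay far from the other 3 (Dixon's 95% limit on its gap to the nearest) for some of the genes named above. This applied to 20 of 320 groups (6.25%), and chance flags about 1 in 20. The flags were not spread evenly, and most fell on the DMSO array of replicate 2 or the LPS+DMSO array of replicate 4. In LPS+DMSO the array of replicate 4 was highest for 167 of the 332 raised genes, beside 5188 of 15865 over all genes. In DMSO that of replicate 2 was highest for 123 of the 332, beside 5614 of 15868. The DMSO array of replicate 2 lay above the others for Ccl5 (13.95, nearest 11.13), Nfkbiz (8.003, nearest 6.87), Dusp4 (11.35, nearest 10.66), Clec4e (13.76, nearest 12.56) and D130051D11Rik (7.87, nearest 6.97). The LPS+DMSO array of replicate 4 lay above the others for Ccl2 (15.65, nearest 15.24), Ccl7 (10.52, nearest 9.70), Csf3 (9.53, nearest 8.46), Jund (14.18, nearest 13.37), C3 (11.94, nearest 11.29), Nos2 (10.22, nearest 9.08) and Ets2 (14.66, nearest 14.38). The DMSO array of replicate 1 lay below the others for Cbx8 (7.77, nearest 8.06). The DMSO array of replicate 2 lay below the others for Junb (5.81, nearest 7.12) and Zc3h12a (3.90, nearest 6.04). The DMSO array of replicate 3 lay below the others for Tmem88 (3.12, nearest 3.85). The LPS+DMSO array of replicate 1 lay below the others for Nr4a1 (12.87, nearest 13.48). The LPS+DMSO array of replicate 2 lay below the others for Zkscan14 (6.58, nearest 6.99). The LPS+DMSO array of replicate 3 lay below the others for Gdf15 (13.52, nearest 14.08). The LPS+DMSO array of replicate 4 lay below the others for Hhex (9.78, nearest 10.37).

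The LPS response differed between cultures with and without cordycepin for 20 of these genes by the interaction test of limma (adjusted over all genes), and the difference in log2 change (with minus without) was -1.54 for Tnf, -0.73 for Nfkbia, -1.19 for Tnfaip3, -1.69 for Traf1, -1.33 for Tnip3, -0.90 for Tank, -1.01 for Atf3, -0.81 for Fosl2, -0.89 for Cebpd, -2.04 for Acod1, -1.71 for Cd83, -0.93 for Icam1, -1.10 for Sdc4, -0.96 for Tlr2, -1.16 for Ikbke, -1.20 for Bcl2l11, -1.34 for Pde4b, 3.00 for 2610507I01Rik, -0.79 for Zfp703 and 1.58 for Pik3ip1. The difference was below 0 for 18 genes whose levels were higher with LPS, and above 0 for 2610507I01Rik and Pik3ip1, which LPS lowered. Most of these genes were named for large changes without cordycepin on arrays that enter the difference, which favours these signs.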

How the results depend on the processing

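The number of raised genes (332) stayed within 1.5 times under all alternatives of scaling, background correction, probe choice, block, variance model and test, and when single replicates or arrays were left out (296 to 349). It was 219 with probes well above background on all 8 arrays, 544 at 1.5-fold and 814 with no minimum fold. The number of lowered genes (395) ranged from 356 to 459 with replicates or arrays left out. It was 148 after normexp background correction, 181 in the authors' values, 194 with probes well above background on all 8 arrays, 945 at 1.5-fold and 1546 with no minimum fold. The listed genes lowered (46) numbered 25, 26, 28, 118 and 156 in these settings. The genes switched off numbered 5 after normexp correction (9 otherwise), and the filter on all 8 arrays leaves none to count by construction. The causes of the other shifts were not tested. Under a block for the replicate number, 339 genes were raised and 403 lowered, and no call of the named genes changed, while 8 interferon-stimulated genes (7 without the block), 1 macrophage identity gene (0) and 0 small nucleolar RNA host genes (1) were raised and 1 prostanoid enzyme (0) was lowered. Scaling to the spiked-in controls moved the median of all genes to -0.15 (224 raised, 293 lowered). Changes close to 0 turned their sign. Under spike-in scaling Gapdh reached -0.068, Rpl28 -0.097 and Csf1r -0.046. With replicates or arrays left out, Gapdh ranged from -0.023 (without replicate 3) to 0.094, Rpl28 from -0.067 (without replicate 3) to 0.058 and Csf1r from -0.16 (without replicate 2) to 0.17. No named gene that was called turned its direction. The methods' t-test gave 331 raised and 392 lowered genes at its unadjusted threshold, and 269 and 305 after Benjamini-Hochberg adjustment. Signals near background limit the values, since 113 of the raised and 201 of the lowered genes were not well above background on all 4 arrays of the lower group. For such genes the fitted fold depended much on the processing. Under the alternatives the log2 change shrank to 1.51 for Dusp5 and 1.92 for Myc (3.54 and 3.56 here). It shrank to -1.03 for Wdr5b and -1.07 for Ppp1r3d (-2.65 and -2.39 here).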
